A study of Mus musculus with 5 samples.

Results

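Irf1, Isg15, Ifit1, Ifit3, Bst2, Gbp2, Ido1, Cd274 and Ifi27, 9 interferon-response genes of the 23172 genes that the count tables listed, were followed across the cell types of mouse colon tumors under chemotherapy. The members were set by name, and their raw counts of unique molecular identifiers (UMIs, 1 per captured transcript) were read in 5 droplet single-cell libraries. Wild-type C57BL/6J or mixed C57BL/6J and 129 mice of both sexes carried colon tumors raised with azoxymethane, a carcinogen, and dextran sodium sulfate, which injures the colon lining (AOM/DSS). The 4 tumor libraries all came from mice given 5-FU and Irinotecan (5FU/I): early tumors were 2 day 1 libraries (replicates 1 and 2), and late tumors were 1 day 3 library and 1 day 6 library. No tumor library without drug entered, and the tumor preparation kept epithelial crypts held back on the filter. The paper's Methods place the harvest after the last of 3 treatment cycles and count the days post-treatment. Its Results speak instead of treatment for 1, 3 and 6 days. The 5th library, WT fibroblast, was a stroma-enriched preparation of untreated normal colon, made by another dissociation, and stood alone in its group. It is called the normal stroma library here, and it entered no test.

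After cells with fewer than 500 detected genes or more than 15% mitochondrial counts were left out, 748 and 2403 cells remained at day 1, 1419 at day 3, 2826 at day 6 and 1095 in the normal stroma. Median UMIs per cell ran from 2903 to 3601, and any pair of libraries shared 4 to 41 cell barcodes. Clusters were named from fixed cell type markers, with the members and other interferon genes held out of the clustering. Tumor libraries in sample order (day 1 replicate 1, day 1 replicate 2, day 3, day 6) held 277, 1242, 897 and 1360 columnar-like cells. These were named from general epithelial, mature colonocyte and stem cell markers (among them Epcam, Car1 and Lgr5), so the class can mix tumor cell states. The same libraries held 51, 188, 281 and 729 squamous-like cells, a stratified epithelium marked by basal keratins. The normal stroma held 264 fibroblast-like cells beside 331 columnar-like cells, so its label describes only part of it. Both treated groups hold 1 library with a single index (replicate 1 at day 1, and day 3) and 1 with a dual index, which the normal stroma also carries. The day 6 library stood apart from the other tumor libraries for nearly all members, so the columnar-like late-early results are also given without it. Other results that rest on it, such as those of the wider fit, are mostly given with it only.

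Interferons are secreted proteins that warn cells of infection and shape immunity in the gut lining. Type I interferons bind the Ifnar1 and Ifnar2 receptor and drive antiviral genes through the interferon-stimulated response element (ISRE) in their promoters. Interferon-gamma, made by T and natural killer cells, binds Ifngr1 and Ifngr2 and acts on genes with a gamma-activated site (GAS). The programs overlap, so Isg15, Ifit1 and Ifit3 are called type I-like here, and Irf1, Gbp2 and Ido1 are called gamma-like, as a naming only.

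Promoters are shown because most members stood highest in the same library, at day 6. RefSeq sequence (GRCm38.p6) for the 250 bases before the start site was at hand for 7 of the 9 members, Irf1 with 2 entries; Ido1 and Ifi27 are named only. Each run below reads 5′ to 3′ on the gene's own strand, and capitals mark ISRE-like matches (GAAANNGAAA, or TTTCNNTTTC on the other strand) and GAS-like matches (TTCNNNGAA, the same on both strands). The Irf1 window is chr11:53769764-53770013 (plus strand), Isg15 chr4:156200819-156201068 (minus), Ifit1 chr19:34640639-34640888 (plus), Ifit3 chr19:34583279-34583528 (plus), Bst2 chr8:71537473-71537722 (minus) and Gbp2 chr3:142620413-142620662 (plus).
Irf1: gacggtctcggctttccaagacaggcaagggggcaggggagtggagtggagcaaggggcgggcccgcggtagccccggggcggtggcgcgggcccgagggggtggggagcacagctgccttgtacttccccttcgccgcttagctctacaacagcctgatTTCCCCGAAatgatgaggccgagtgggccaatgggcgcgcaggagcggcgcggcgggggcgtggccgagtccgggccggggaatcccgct
Isg15: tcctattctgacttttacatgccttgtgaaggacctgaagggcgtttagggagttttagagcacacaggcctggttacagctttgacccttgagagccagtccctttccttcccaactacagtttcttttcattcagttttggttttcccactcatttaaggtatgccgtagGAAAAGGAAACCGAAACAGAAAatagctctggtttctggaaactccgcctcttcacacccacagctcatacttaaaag
Ifit1: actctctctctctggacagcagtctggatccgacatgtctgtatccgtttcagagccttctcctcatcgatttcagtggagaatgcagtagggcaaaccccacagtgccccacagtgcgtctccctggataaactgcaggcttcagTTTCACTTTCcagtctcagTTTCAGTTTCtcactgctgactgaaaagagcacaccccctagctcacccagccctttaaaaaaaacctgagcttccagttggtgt
Ifit3: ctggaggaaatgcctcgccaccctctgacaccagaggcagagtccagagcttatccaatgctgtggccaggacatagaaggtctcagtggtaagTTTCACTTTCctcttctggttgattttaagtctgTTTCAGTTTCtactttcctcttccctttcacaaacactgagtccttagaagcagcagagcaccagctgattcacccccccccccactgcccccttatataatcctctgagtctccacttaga
Bst2: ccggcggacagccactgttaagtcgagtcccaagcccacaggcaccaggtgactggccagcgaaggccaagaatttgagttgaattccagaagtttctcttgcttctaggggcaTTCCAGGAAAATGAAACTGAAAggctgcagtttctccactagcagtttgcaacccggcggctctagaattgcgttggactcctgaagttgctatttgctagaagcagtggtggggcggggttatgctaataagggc
Gbp2: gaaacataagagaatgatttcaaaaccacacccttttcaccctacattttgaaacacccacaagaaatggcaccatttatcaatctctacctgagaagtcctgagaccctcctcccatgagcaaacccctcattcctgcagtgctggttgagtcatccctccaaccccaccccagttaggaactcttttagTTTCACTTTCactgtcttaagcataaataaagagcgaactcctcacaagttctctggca
Isg15 held 3 ISRE-like matches that overlap each other, which begin 78, 72 and 66 bases before the start site. Ifit1, Ifit3 and Bst2 held 2 each and Gbp2 held 1, at 59 bases. Irf1 held 1 GAS-like match at 90 bases, and Bst2 held 1 that overlaps an ISRE-like match. Cd274 and the other Irf1 entry held neither. ISRE-like matches were in 2.98% of the 32851 mouse promoter windows of this length and GAS-like matches in 7.02%; 5 and 2 of the 7 members held them. A match is a description of letters and was not tested for binding.

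Irf1, the transcription factor that interferon-gamma induces within hours, was the member with the most counts in 3 of the 4 tumor libraries. In columnar-like cells its level was 39.4 and 48.8 CPM (counts per 1000000 UMIs of that class in that library) at day 1, 51.9 at day 3 and 262 at day 6. Day 6 was thus 5.05-fold above the highest of the other 3, which lay close together. Levels compared between genes below are UMI counts, which count transcripts and were not divided by length.

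The gamma-like effectors and Cd274 were traces in columnar-like cells until day 6. Gbp2, a guanylate-binding GTPase of cell-autonomous defense, stood at 5.81 and 3.15 CPM at day 1, 9.69 at day 3 and 844 at day 6 in columnar-like cells (exact 95% Poisson interval at day 6, 824 to 863, which covers counting error only). Ido1, which degrades tryptophan, was at 1.94 and 0.963 CPM at day 1, 2.54 at day 3 and 183 at day 6. Cd274, the checkpoint ligand PD-L1, was at 1.94 and 3.41 CPM at day 1, 0.922 at day 3 and 144 at day 6. Day 6 was 42.0-fold (Cd274), 72.2-fold (Ido1) or 87.1-fold (Gbp2) above the highest of the other 3 tumor libraries. Gbp2 was detected in many columnar-like cells at day 6, though most of its counts lay in the clusters described below. With each cell thinned to 1000 UMIs, 39.4% of columnar-like cells carried Gbp2 at day 6 (unthinned, 862 of 1360 cells). The shares were 0.361%, 0.242% and 1.11% in the other tumor libraries.

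The type I-like members also stood highest at day 6, from lower levels. Ifit1, which binds foreign RNA, was at 1.61 and 1.31 CPM at day 1, 0.692 at day 3 and 86.2 at day 6, 53.5-fold above the highest of the others, which is between the folds of Cd274 and Ido1. Ifit3, its partner, was at 0.968 and 0.350 CPM at day 1, 1.84 at day 3 and 24.0 at day 6. Isg15, a ubiquitin-like modifier, was at 8.71 and 1.05 CPM at day 1, 2.77 at day 3 and 35.0 at day 6, so its day 1 libraries differed from each other by more than day 3 differed from either in CPM. Bst2 (tetherin, which holds budding virus at the cell surface) moved least, at 7.74 and 2.10 CPM at day 1, 6.92 at day 3 and 11.9 at day 6. Ifi27, a small interferon-induced membrane protein, was at 18.1 and 9.98 CPM at day 1, 13.8 at day 3 and 40.7 at day 6. Reads of Ifit3 and Ifit3b, Ifit1 and Ifit1bl1, Gbp2 and Gbp2b, and Ifi27 and Ifi27l2a may be split where these related genes share sequence, so these levels are uncertain to that extent.

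**Figure D1:**
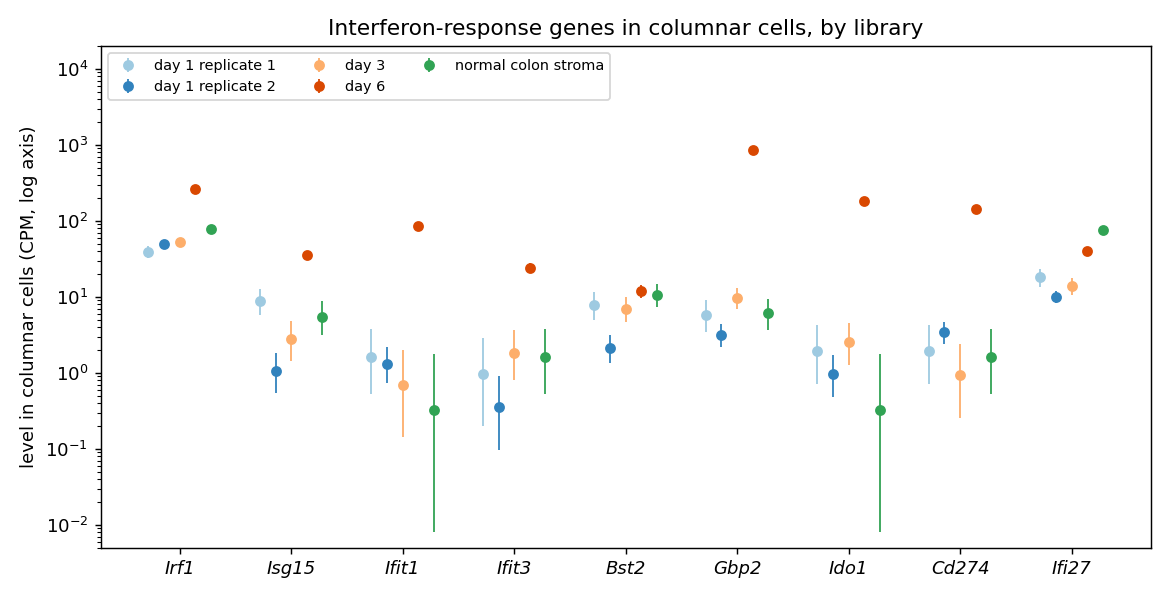
CPM of the 9 members in columnar-like cells of each library, on a log axis; points are single libraries and bars are exact 95% Poisson intervals of the count. Day 6 is the highest tumor library for each member, from 11.9 CPM for Bst2 to 844 CPM for Gbp2.

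Within the day 6 library the members were uneven across columnar-like clusters. Clusters are described without a test. A cluster of 159 cells, 11.7% of the class, held 67.9% of the Gbp2 counts, 78.0% of Ido1, 86.8% of Cd274 and 73.6% of Ifit1. It stood at 2313 CPM for Gbp2, 577 for Ido1, 503 for Cd274 and 256 for Ifit1. A cluster of 346 cells followed at 1303, 229, 107 and 135 CPM for the same genes. The largest cluster, 535 cells, had 344, 47.1, 19.3 and 12.1 CPM, and a cluster of 297 cells had 188, 24.5, 11.03 and 14.998 CPM. The clusters with most Gbp2 were also highest in Krt20, a keratin of mature colon epithelium (2965, 2263, 648 and 540 CPM in that order), and in Car1, a carbonic anhydrase of mature colonocytes (2215, 1751, 702 and 562 CPM). Median UMIs per cell were 11888, 1763.5, 1277 and 13854 in the same order, so the deep clusters weigh more in a summed level.

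Irf1, Isg15 and Ifit3 were less uneven across these clusters, and Bst2 and Ifi27 followed another order. Irf1 was at 460, 312, 169 and 186 CPM, Isg15 at 83.2, 67.1, 23.0 and 10.1 CPM, and Ifit3 at 51.1, 51.5, 20.5 and 7.50 CPM. Ifi27 was at 42.1, 55.1, 27.8 and 39.7 CPM, a narrow range, and Bst2 at 6.62, 22.8, 9.67 and 12.6 CPM. The 848 day 6 cells of the other columnar-like clusters with at least 10 of them had 211 CPM of Gbp2, 21.7-fold above the highest other tumor library, and 180 CPM of Irf1, 3.47-fold above it. The clusters that hold the class differ between libraries: the Gbp2-high clusters are day 6 cells in 159 of 162 and 346 of 348 cases, so a library and a cell state cannot be told apart there.

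**Figure D2:**
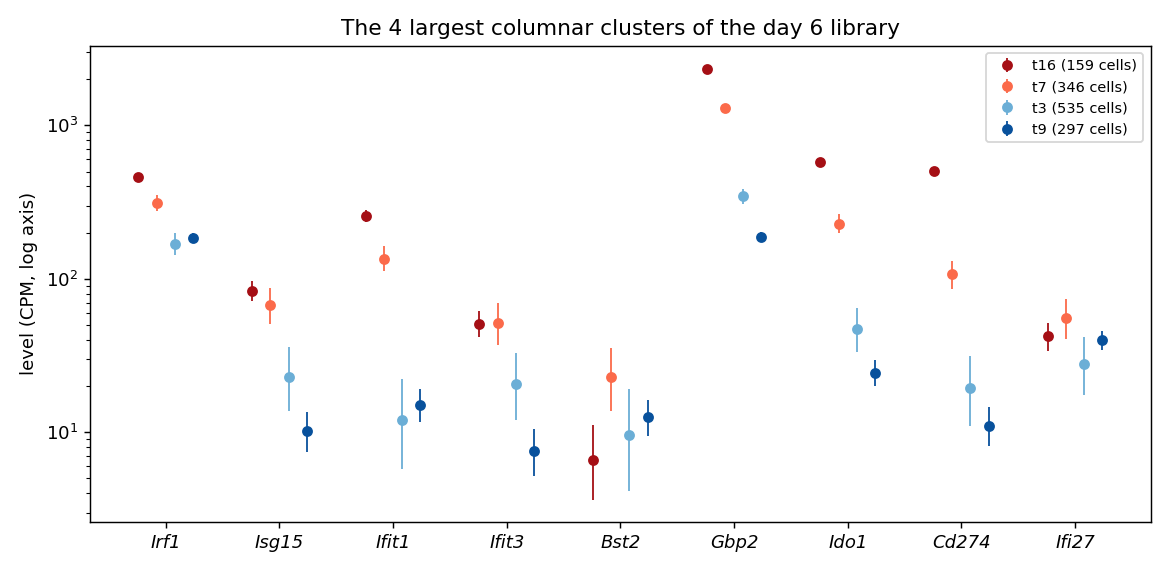
CPM of each member in the 4 largest columnar-like clusters of the day 6 library, on a log axis, with exact 95% Poisson intervals. Gbp2 falls from 2313 to 188 CPM across the clusters, whereas Ifi27 stays between 27.8 and 55.1 CPM.

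Members also fell in the same cells at day 6, given here as counts in cells thinned to 1000 UMIs. Of the 486 columnar-like cells with a Gbp2 UMI, 19.96% also had Ido1, 11.7% Cd274 and 9.47% Ifit1. Of the 749 cells without one, 6.01% had Ido1, 3.07% Cd274 and 1.20% Ifit1. The same shares were 1.44% against 1.60% for Bst2 and 4.32% against 4.27% for Ifi27. Of the 55 cells with Ifit1, 83.6% had Gbp2, so the type I-like and gamma-like members were seen in shared cells.

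The question of time was whether late tumors differed from early ones within a cell class. In columnar-like cells all 9 members were tested and all 9 were higher late, with a median log2 difference of 5.01 against 0.02 over all genes tested. None of the 9 passed at an adjusted p of 0.05 by edgeR's quasi-likelihood test with Benjamini-Hochberg adjustment, as none of the 13513 genes did (0%; 2242 genes and 6 members had an unadjusted p under 0.05). Gbp2 differed by a log2 of 7.09 ± 2.02 (standard error of 4 libraries, adjusted p = 0.209), Ido1 by 6.61 ± 1.94 (0.215), Ifit1 by 5.40 ± 1.86 (0.247), Cd274 by 5.15 ± 1.88 (0.261) and Ifit3 by 5.01 ± 1.40 (0.208) in this edgeR fit. Isg15 differed by 2.56 ± 1.39, Irf1 by 2.28 ± 0.78, Bst2 by 1.45 ± 0.76 and Ifi27 by 1.42 ± 0.65, with adjusted p-values from 0.242 to 0.399 by the same edgeR test. The libraries are separate samples, and these p-values measure only the spread between them.

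Day 3 and day 6, both labelled late, were far apart, and each decides the comparison. Without day 3, 8 of 9 members rose, all but Bst2, by edgeR's test, where 11.8% of all genes were called and 6.37% were called higher. Gbp2 then differed by 8.11 on the log2 scale, Ido1 by 7.66, Ifit1 by 6.41, Cd274 by 6.11, Ifit3 by 5.97, Isg15 by 3.57, Irf1 by 3.04 and Ifi27 by 2.05, and day 6 alone stood for the late tumors. Without day 6, 0 of 7 tested members passed, where 6.01% of all genes were called. Gbp2 then stood at 1.53, Cd274 at -1.22 and Isg15 at -0.33. Within the single-index libraries the day 3 level of Gbp2 was 1.03 above day 1 in edgeR log2 CPM with a prior count of 2, and within the dual-index libraries day 6 was 8.41 above day 1. Irf1, Ifit3, Gbp2 and Ido1 had both late libraries above both early ones in columnar-like cells, 4 of 9 members against 9.94% of all genes. Ifit3 rested there on 8 counts at day 3 against 3 and 4 at day 1. Ido1 rested on 11 against 6 and 11. For both, the Poisson interval at day 3 overlapped that of day 1 replicate 1. In squamous-like cells Bst2, Cd274 and Ido1 had this order, in CAF-like cells Bst2 and in endothelial-like cells Cd274. In neutrophil-like cells Ido1 had it, and Ifit1 had the reverse order.

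**Figure D3:**
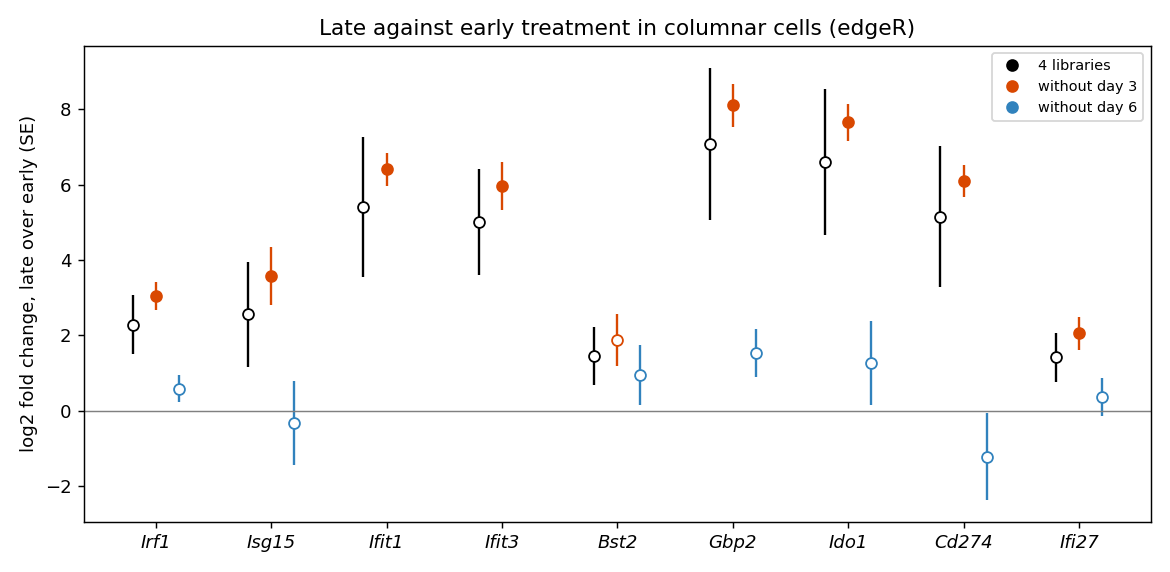
Log2 difference of late from early tumors in columnar-like cells for each member, with all 4 libraries and with day 3 or day 6 left out; bars are standard errors from the edgeR fit. Filled points passed at an adjusted p of 0.05. Gbp2 moves from 7.09 to 8.11 without day 3 and to 1.53 without day 6.

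The wider interferon lists moved like the members in columnar-like cells. Of the type I-like list (35 genes such as Oas, Mx and Ifit family genes), 28 were tested, 26 were higher late and 0 passed, with a median log2 difference of 2.14. Of the gamma-like list (30 genes such as other Gbp genes, immunity-related GTPases and antigen-processing genes), 22 were tested, 21 were higher late and 0 passed, with a median of 3.22. The interferon receptors and their kinases had 8 of 9 genes tested, 6 higher and 0 passed, with a median of 0.36. All-gene background was 0% in this edgeR fit. With DESeq2, 6 of 28 type I-like and 10 of 22 gamma-like genes rose, and with no filter on low counts 23 of 35 and 24 of 29 did. The 0% is that of the main fit only. Shares of all genes called in these alternatives are not given here, so their list counts stand without a background. Without day 3, 29 of 33 type I-like, 25 of 28 gamma-like and 1 of 8 receptor genes rose, and without day 6 these counts were 0 of 26, 3 of 21 and 0 of 8, with 1 type I-like gene lower.

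In squamous-like cells the day 6 library was again the highest for most members, at lower levels. Irf1 was at 43.9 and 27.2 CPM at day 1, 35.1 at day 3 and 95.8 at day 6. Gbp2 was at 10.98 and 6.79 CPM at day 1, 8.56 at day 3 and 201 at day 6. Ifi27 was at 38.4 and 17.5 CPM at day 1, 36.0 at day 3 and 72.8 at day 6. Ifit1 and Ifit3 had no count in 3 tumor libraries and 18.9 CPM each at day 6. Ido1 was at 0, 0, 1.71 and 19.1 CPM and Cd274 at 0, 0.970, 3.42 and 20.2 CPM in sample order. Isg15 (0 to 10.98 CPM) and Bst2 (1.94 to 6.85 CPM) did not peak at day 6.

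Columnar marker RNA was seen in the other classes, and the columnar-like level scaled by its share is given beside the members. That share reached 108% in goblet-like and 128% in Paneth-like cells of day 1 replicate 1. In such epithelial classes it can be the cells' own RNA, so the scaled level is no background there. Over 13 columnar markers, the median level in day 6 squamous-like cells was 23.3% of that in columnar-like cells. Columnar-like Gbp2 scaled by that share would be 197 CPM, against 201 CPM observed in squamous-like cells. The same scaling gives 61.0 CPM for Irf1 against 95.8 observed, 42.7 for Ido1 against 19.1 observed, and 33.5 for Cd274 against 20.2 observed. The scaled value was above the observed one for Ido1 and Cd274, so it is no measured background, and the part of columnar RNA in the squamous-like levels was not tested.

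No member passed edgeR's test between late and early squamous-like cells. Of 9776 genes tested, 0 passed (0%; 393 with an unadjusted p under 0.05), and the 3 members tested were Gbp2 at a log2 of 3.76 ± 1.20 (adjusted p = 0.999), Ifi27 at 1.20 ± 0.57 and Irf1 at 1.07 ± 0.58. The late-early difference in squamous-like cells minus that in columnar-like cells was tested as an interaction, where 0 of 9 members passed against 0.0371% of 13482 genes. Gbp2 gave -2.90 ± 0.80 (adjusted p = 0.278) and Irf1 -0.96 ± 0.50 (adjusted p = 0.580) in this edgeR fit. The other 7 lay between -1.34 for Isg15 and 3.25 for Ifit3, with standard errors from 0.46 to 4.12. Without day 3, 2 of 9 members had a smaller difference in squamous-like cells, where 6.63% of all genes were called.

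Tumor stromal cells were highest at day 6 for Irf1, Gbp2, Bst2 and Ifi27. Tumor fibroblast-like cells (CAF-like, 14, 39, 30 and 55 cells) had Irf1 at 40.7, 25.2, 36.8 and 118 CPM and Gbp2 at 20.4, 8.42, 9.19 and 199 CPM. The scaled columnar level at day 6 was 231 CPM for Gbp2, above the observed value, and 71.7 CPM for Irf1. Bst2 had no count in CAF-like cells of either day 1 library and stood at 9.19 CPM at day 3 and 80.9 CPM at day 6, against a scaled columnar level of 3.27 CPM at day 6. Ifi27 was at 20.4, 25.2, 18.4 and 68.4 CPM. No member had enough counts for the late-early test in CAF-like cells.

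Endothelial-like cells (12, 62, 59 and 15 cells) carried Gbp2 before day 6. Their Gbp2 was at 22.5, 41.8 and 24.0 CPM in the libraries up to day 3, above the 3.15 to 9.69 CPM of columnar-like cells, and at 305 CPM at day 6 (95% Poisson interval 178 to 489). Irf1 was at 15.03, 54.6, 42.1 and 108 CPM, and Ifi27 at 60.1, 41.8, 39.1 and 89.8 CPM. Late and early endothelial-like cells differed by a log2 of 0.79 ± 0.76 for Irf1 and 0.27 ± 0.70 for Ifi27, neither called by edgeR (0.0582% of 5158 genes were). Lymphatic endothelial-like cells had Gbp2 at 74.3 CPM in day 1 replicate 2, 17.5 at day 3 and 460 at day 6.

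**Figure D4:**
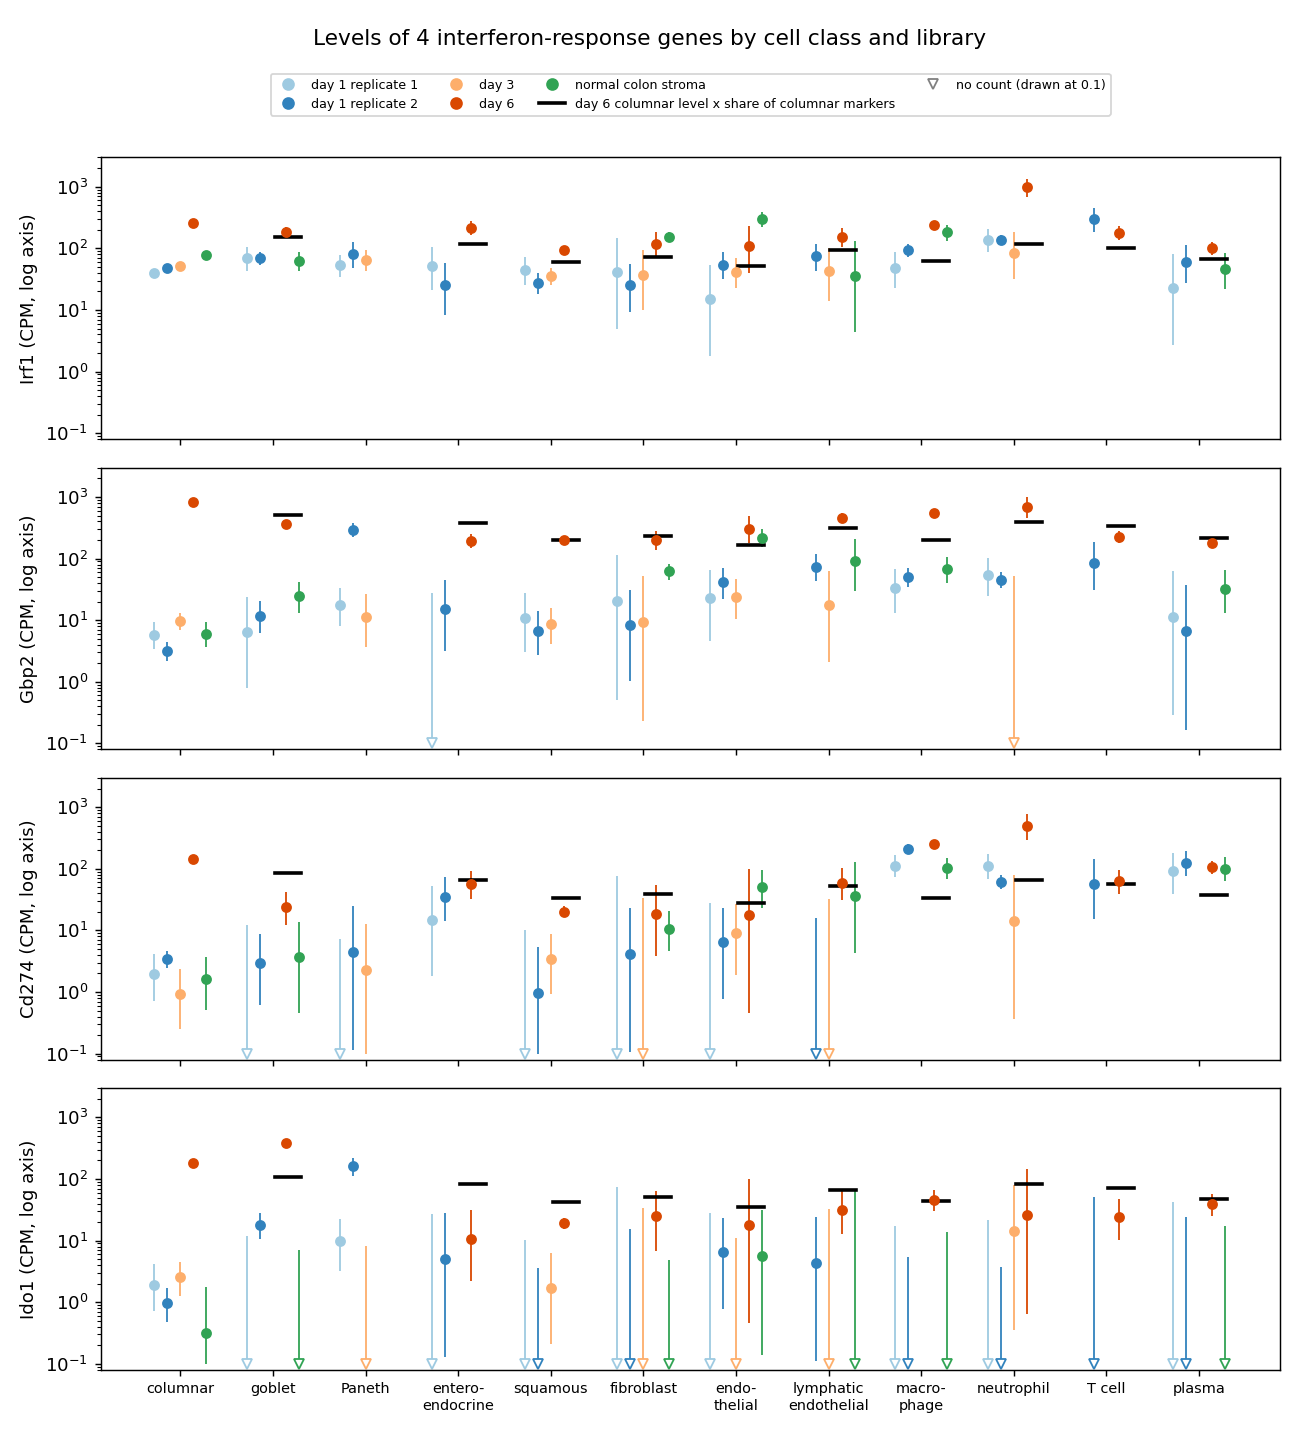
CPM of Irf1, Gbp2, Cd274 and Ido1 by cell class and library, on a log axis, with exact 95% Poisson intervals; classes with at least 10 cells in a library are drawn, and open triangles mark counts of 0. The black line is the day 6 columnar-like level scaled by the share of columnar marker RNA in the class. It is no measured background. Day 6 is the highest tumor library for Gbp2 in each class with a day 6 point, and Cd274 in macrophage-like cells is at 102 CPM or more in each library drawn.

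Neutrophil-like cells (69, 395, 28 and 24 cells) carried several members in each tumor library. Irf1 was at 136, 139, 85.3 and 976 CPM, Cd274 at 113, 60.6, 14.2 and 488 CPM, and Isg15 at 77.1, 23.6, 42.7 and 77.1 CPM. The scaled columnar level at day 6 was 120 CPM for Irf1 and 65.7 CPM for Cd274, both under the observed values. Ifit1 was at 83.0 and 18.5 CPM at day 1 and had no count at day 3 or day 6. In these small sums a count of 0 allows up to 42.7 CPM at day 3 and 77.1 CPM at day 6. Both limits are above the level of day 1 replicate 2, and a change of Ifit1 was not tested. The late-early test covered Irf1 (log2 difference 1.95 ± 0.97, adjusted p = 0.784) and Cd274 (1.51 ± 1.11, adjusted p = 0.893), and neither passed by edgeR's test, as 0 of 2578 genes did (151 with an unadjusted p under 0.05).

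Macrophage-like cells numbered 46 and 140 at day 1 and 156 at day 6, and had Cd274 in each of these libraries. The 5 macrophage-like cells of day 3 had no Cd274 count. Cd274 was at 113 and 211 CPM at day 1 and 254 CPM at day 6, against a scaled columnar level of 34.2 CPM at day 6. Gbp2 was at 33.0 and 49.9 CPM at day 1 and 551 CPM at day 6, against a scaled 201 CPM. Irf1 was at 47.1, 92.5 and 237 CPM, against a scaled 62.4 CPM at day 6. Ido1 had no count at day 1 and stood at 45.7 CPM at day 6, against a scaled columnar level of 43.7 CPM; the part of columnar RNA in it was not tested.

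Day 6 was compared with the day 1 pair in macrophage-like cells in a fit added after the data were seen. Gbp2 rose by a log2 of 3.77 ± 0.51 (adjusted p = 8.61e-11), Irf1 by 1.79 ± 0.48 (0.0115) and Ido1 by 7.64 ± 1.59 (0.000242) by edgeR's test, 3 of 7 members tested, where 2.11% of 8877 genes were called and 1.28% were called higher. The Ido1 value is set against libraries with no count and depends on the prior count of the fit. Bst2 differed by 1.71 ± 0.56, Ifi27 by 2.48 ± 0.81, Isg15 by 1.55 ± 0.97 and Cd274 by 0.72 ± 0.47. Only 1 library stood for late tumors, so these values are given as effect sizes only.

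Gamma-like list genes were mostly higher in the same fit, which is given as effect sizes only. Of the gamma-like list, 25 of 26 tested genes were higher in day 6 macrophage-like cells. Among them were Cxcl9 (log2 difference 7.49) and Cxcl10 (5.85), chemokines that draw T cells, and Iigp1 (9.05) and Igtp (3.91), immunity-related GTPases. Of the type I-like list 18 of 26 were higher, among them Ifit1bl1 (4.52) and Lgals3bp (1.84), and of the receptors 4 of 7. The medians were 2.13, 0.83 and 0.02 in that order. Columnar RNA in these cells was 23.8% of the columnar-like level, and its part in these list changes was not tested.

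The members were then set against columnar-like cells within the same libraries, with library as a block. Of the 5 members tested, Ifi27 was higher in squamous-like cells by a log2 of 1.15 ± 0.27 (adjusted p = 0.00290) and in endothelial-like cells by 1.60 ± 0.33 (0.000793) by edgeR's test, where 9.37% and 12.3% of 8687 genes were called higher. Irf1, Isg15, Gbp2 and Cd274 did not pass in squamous-like cells, at -0.64 ± 0.30, -0.57 ± 0.68, -0.68 ± 0.62 and -1.71 ± 0.72. No member passed in CAF-like cells, where 21.5% of genes were called; Cd274 was at -1.87 ± 1.15 and Ifi27 at 0.86 ± 0.40. Gbp2 in endothelial-like cells was at 0.68 ± 0.68 with all libraries and passed at 2.41 without day 6.

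Neutrophil-like cells exceeded columnar-like cells in 4 of the 5 members. Cd274 was higher by a log2 of 3.83 ± 0.60 (adjusted p = 2.60e-05), Isg15 by 3.24 ± 0.66 (0.000731), Irf1 by 1.77 ± 0.31 (0.000109) and Ifi27 by 1.66 ± 0.35 (0.00107) by edgeR's test, where 11.6% of genes were called higher. Gbp2 was at 1.67 ± 0.64 (adjusted p = 0.0854) and did not pass. The type I-like list had 8 of 22 tested genes higher, led by Oasl2, Trim30a, Oas2 and Rsad2, all interferon-induced. Trim30a also differed by index structure in columnar-like cells. It was at 3.92 and 5.48 CPM in the single-index libraries and 236 and 822 CPM in the dual-index tumor ones. The gamma-like list had 3 of 19 genes higher, among them Psmb9 and Irgm2. Ifnar2, Jak1 and Il10rb, 3 of 6 receptor-list genes, were also higher. In squamous-like cells the type I-like list had 1 gene higher and 4 lower of 22, and the gamma-like list 0 higher and 5 lower of 19 (all genes called lower, 8.91%), with Irgm2, Igtp, Irf8 and Wars the leading ones.

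A wider fit over every class with at least 10 cells in a library, added after the data were seen, tested 8 members over 11765 genes. Bst2, expressed by plasma cells and macrophages in other settings, was higher than in columnar-like cells in plasma-like (log2 difference 3.24 ± 0.61, adjusted p = 0.000100), macrophage-like (2.95 ± 0.52, 1.53e-05), lymphatic endothelial-like (2.37 ± 0.64, 0.00602) and T cell-like cells (2.19 ± 0.73, 0.0404) by edgeR's test. The T cell-like sums were day 1 replicate 2 (26 cells, 14.0 CPM of Bst2) and day 6 (156 cells, 56.7 CPM). No member was called in T cell-like cells with DESeq2 or at Leiden resolution 2. Cd274 was higher in macrophage-like (3.58 ± 0.63, 1.42e-05) and plasma-like cells (2.86 ± 0.73, 0.00468) by the same edgeR test. All genes called higher were 7.56% in plasma-like, 15% in macrophage-like, 9.43% in lymphatic endothelial-like and 7.09% in T cell-like cells. Ifi27 was higher in lymphatic endothelial-like (1.91 ± 0.35) and enteroendocrine-like cells (1.60 ± 0.34), the latter with 8.38% of genes called higher. Ifit1 was higher in neutrophil-like cells (2.53 ± 0.83, adjusted p = 0.0298 by edgeR), with 10.4% of genes called higher. Ido1 was lower than in columnar-like cells in squamous-like (-2.80 ± 0.75, adjusted p = 0.00488) and enteroendocrine-like cells (-3.53 ± 1.08, 0.0198) by edgeR, where 9.87% and 6.99% of genes were called lower. Columnar-like Ido1 was at 183 CPM at day 6 and at most 2.54 CPM in the other tumor libraries. These Ido1 differences are not given without day 6.

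Small numbers of cells carried some high values. In Paneth-like cells of day 1 replicate 2, Gbp2 was at 294 CPM and Ido1 at 161 CPM, against at most 17.6 and 9.77 CPM in the other libraries with this class. The 66 Gbp2 counts came from 3 of 88 cells and the 36 Ido1 counts from 2 of them. Gbp2 and Ido1 were called higher in Paneth-like than in columnar-like cells (log2 2.35 ± 0.63 and 4.01 ± 0.69 by edgeR, where 1.48% of genes were), and 0 members were called without that library. In goblet-like cells of day 6, the mucus-secreting epithelium, Ido1 was at 381 CPM from 191 counts in 12 of 46 cells, and Gbp2 was at 361 CPM. The scaled columnar levels were 109 CPM for Ido1 and 501 CPM for Gbp2, which are no background in this class.

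The balance of type I-like to gamma-like members was read as the log2 ratio of their summed CPM. In columnar-like cells it was -2.06 and -4.29 at day 1, -3.60 at day 3 and -3.15 at day 6, so gamma-like members outweighed type I-like ones in each library, by an amount set mainly by Irf1 before day 6. Day 6, with the highest sums (145 CPM type I-like and 1289 CPM gamma-like), lay within the range of the other libraries. That place rests on which genes are summed: day 6 was the highest tumor library without Gbp2 (-1.62, against -1.87 and -4.20 at day 1 and -3.36 at day 3) and without Isg15 (-3.55, against -4.19, -4.99 and -4.66). In squamous-like cells it was -2.32 in day 1 replicate 1, -2.92 at day 3 and -2.79 at day 6, and day 1 replicate 2 had no type I-like count. In neutrophil-like cells it was -0.19 and -1.65 at day 1, -1.22 at day 3 and -4.04 at day 6 (95% interval -5.96 to -2.62), the lowest of the class, as it was without Gbp2 (-3.29). Macrophage-like cells gave -2.50, -3.01 and, at day 6, -4.05 (-4.61 to -3.55). Without Gbp2 the same cells gave -1.74, -2.39 and -2.49. Goblet-like cells at day 6 were lowest of all sums with a type I-like count, at -7.86 (-10.9 to -6.00).

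**Figure D5:**
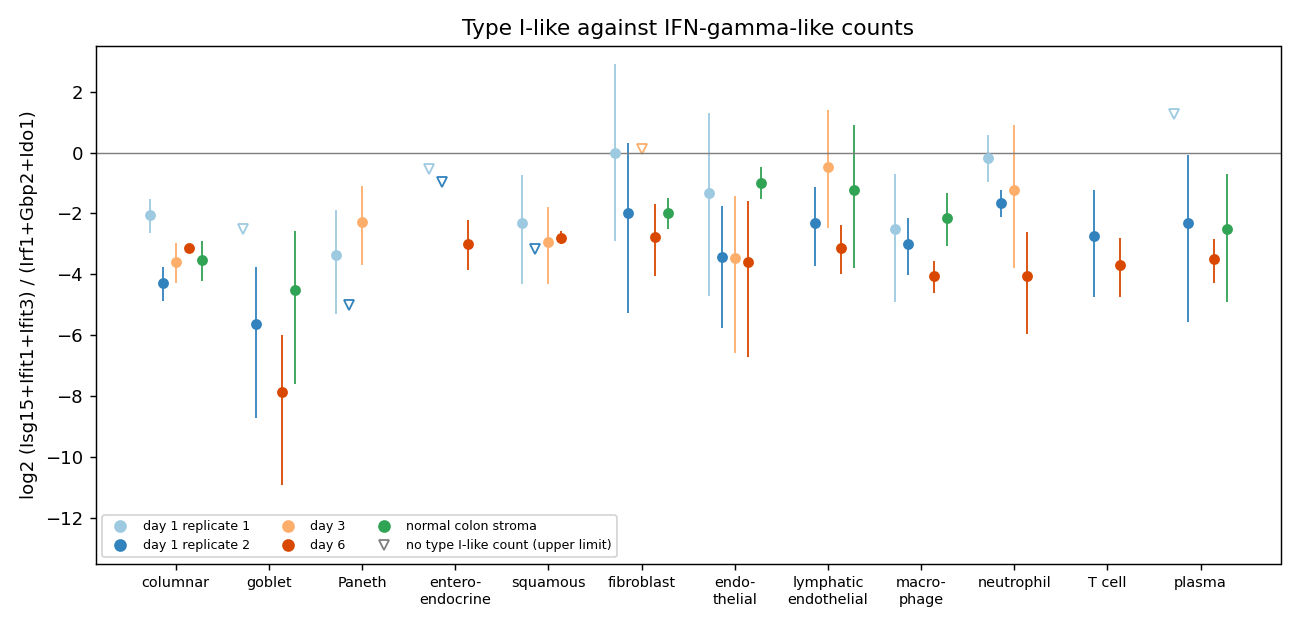
Log2 ratio of the summed CPM of Isg15, Ifit1 and Ifit3 to that of Irf1, Gbp2 and Ido1 by cell class and library, with exact 95% intervals; triangles mark the upper limit for sums without a type I-like count. Nearly all values are below 0. Tumor columnar-like values run from -4.29 to -2.06, and the stroma columnar-like value is -3.53. The stroma endothelial-like value is -0.98, and tumor endothelial-like values run from -3.58 to -1.32 with wide intervals.

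The normal stroma library had another member profile, given without a test. Its endothelial-like cells (48 cells) had Irf1 at 296 CPM, Bst2 at 301, Ifi27 at 218, Gbp2 at 218 and Isg15 at 201 CPM, and their log2 ratio was -0.98 (-1.52 to -0.46). Its fibroblast-like cells had Irf1 at 153, Bst2 at 79.3 and Gbp2 at 62.1 CPM. Bst2 reached 542 CPM in plasma-like and 325 CPM in lymphatic endothelial-like cells. Cd274 was highest, at 181 CPM, in a cluster of 43 cells left unnamed here, whose leading genes include Ighm and Bank1 of B cells and Icos of T cells. Ido1 had 2 counts in all 1095 cells. Its columnar-like cells had Gbp2 at 6.07 CPM, close to the tumor libraries other than day 6, and Ifi27 at 76.0 CPM, above all 4. Treatment, tissue and dissociation differ together between this library and the tumors and cannot be told apart.

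The ligands were nearly absent. Of 10 interferon genes listed, Ifng and Ifne had a count. Ifng had 27 counts in 8 of the 156 T cell-like cells at day 6 (80.5 CPM, 95% Poisson interval 53.1 to 117), 2 in columnar-like cells and 1 in squamous-like cells of that library, and none in the other tumor libraries. The day 1 libraries held 5 and 26 T cell-like cells and day 3 held 1; a count of 0 in the 26 cells of day 1 replicate 2 allows up to 42.1 CPM. In the wider fit Ifng differed between T cell-like and columnar-like cells by a log2 of 7.17 ± 1.37. Day 6 alone held the tumor counts, so that value restates them and adds no replicate. In the normal stroma Ifng had 9 counts in 3 cells of the unnamed cluster led by Ighm, Bank1 and Icos, and 1 count in columnar-like cells. The receptor genes were present throughout: columnar-like Ifngr2 was at 198, 207, 193 and 241 CPM, and Ifngr1 at 58.4, 68.9, 53.5 and 206 CPM in sample order.

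The genes most like each member were sought over 41 library-by-class sums of the tumors among 7972 genes, as Pearson correlations of log2 CPM with 10 added. These sums share libraries and columnar RNA, so r is a description. Gbp2 was most like Igtp (r = 0.85), Ifit1bl1 (0.84) and Ifi47 (0.84), and Irf1 most like Prr13 (0.81), Sp110 (0.79) and Gbp2 (0.78). Ido1 was nearest to Trim40 (0.77), Gbp2 (0.75) and Atp12a (0.72). Cd274 was nearest to Cd52 (0.85), Vav1 (0.82) and Itgb2 (0.81), all leukocyte genes, and not to another member. Ifit1 was nearest to Irgm2 (0.70), Gbp7 (0.69) and Syf2 (0.66), and Ifit3 to Xdh (0.73), Oasl2 (0.68) and Steap4 (0.67). Isg15 was nearest to Csrnp1 (0.65), Rtp4 (0.64) and Cd14 (0.64), Bst2 to Gvin1 (0.73), Serpina3g (0.71) and H2-M3 (0.68), and Ifi27 to Upp1 (0.78), Nr1h2 (0.71) and Vkorc1 (0.67).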

How the data were processed

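The libraries were made by inDrop, a droplet method that tags each transcript with a UMI at its 3′ end. The authors demultiplexed and counted reads with dropEst on GRCm38 and deposited, per library, a table of raw UMI counts per gene and cell; per the labels the build was GRCm38. The deposited counts were used as they are, with no batch correction, and 0 columns were left unmapped to a sample. Kept cells were clustered (Python 3.11.15, scanpy 1.11.5: 2000 variable genes without the 84 members and list genes, 20 components, 20 neighbors, Leiden at resolution 1), tumors and normal stroma apart. A cluster was named from at least 3 markers of a fixed list. Scrublet called 0 to 7 cells per library as doublets, too few to have worked, so none were removed and an alternative without the highest 6% of scores was run.

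Counts were summed per library and class (at least 10 cells) and tested with edgeR 4.0.16 (TMM, filterByExpr, quasi-likelihood, R 4.3.3), adjusted by Benjamini-Hochberg over all genes, at 0.05; DESeq2 1.42.0 was an alternative. Standard errors are the log2 difference over the square root of F. The steps were tested on simulated data. Macrophage-like and T cell-like cells left the planned fits because day 3 held 5 and 1 of them. Intervals are exact 95% Poisson or, for ratios, conditional binomial intervals, for counting error only; a count of 0 allows up to 3 counts. Depth was 5132360 to 16904947 UMIs per library. All 9 members are named in each comparison, and per list up to 4 called genes with the smallest adjusted p. The members and lists were chosen with earlier results of these data known.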

Additional observations from a re-analysis of the deposited data

How the results depend on the processing

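Counts of members called moved by over 1.5 times in 9 of 17 comparisons without day 3, 8 of 18 with no filter on low counts, 5 of 18 with DESeq2, and 3 or 4 of 17 without any other library. Late against early, columnar-like cells gave 7 called members with no filter on low counts, 4 with DESeq2 (Gbp2, Ido1, Ifit3 and Irf1) and 0 to 8 with each replicate left out. Squamous-like cells gave 4 with no filter and 0 to 1 with each left out, CAF-like and endothelial-like cells 0 to 1, and neutrophil-like cells 0 to 3. Set against columnar-like cells, members called were 4 (no filter), 2 (every sum of at least 10 cells) and 1 to 2 (each left out) in squamous-like cells, 3 (no filter) in CAF-like, 1 to 2 (each left out) in endothelial-like, 7 (no filter) in neutrophil-like, and 1 (no filter) and 0 to 2 (each left out) for the interaction. In the wider fit they were 1 (DESeq2) and 1 to 2 in enteroendocrine-like, 5 (no filter) and 0 to 1 in goblet-like, 2 to 4 in macrophage-like, 0 (DESeq2) and 0 to 2 in Paneth-like, 1 to 2 in plasma-like, and 2 (no filter), 0 (DESeq2), 0 (Leiden resolution 2) and 0 to 3 in T cell-like cells. The macrophage-like late-early fit called 1 with DESeq2 and 1 with the highest Scrublet scores removed. The number of all genes called moved too, in 8 comparisons with DESeq2 and in 10 with no filter on low counts. Shares of all genes are not given beside these member counts, so the counts are not read as results about the members. No filter tests more genes and each left-out fit fewer libraries, and beyond that the cause was not tested.

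Signs turned for values that had not passed. Isg15 in CAF-like against columnar-like cells was 0.10 with RLE, 0.27 with DESeq2, 0.071 with the highest Scrublet scores removed and -2.10 to 1.56 with each replicate left out. With DESeq2, Cd274 in endothelial-like cells was 0.15, and the interaction was 0.27 for Cd274, -0.84 for Ido1, -0.26 for Ifit1 and -0.31 for Ifit3. With each replicate left out, late against early ran from -1.22 to 6.11 for Cd274 and -0.33 to 4.66 for Isg15 in columnar-like cells, -0.082 to 0.93 for Ifi27 in endothelial-like cells, and -2.57 to 2.61 for Cd274 and -0.79 to 2.84 for Irf1 in neutrophil-like cells. Against columnar-like cells, Gbp2 ran from -0.93 to 0.66 and Isg15 from -1.22 to 0.66 in squamous-like cells, and Gbp2 from -1.15 to 0.85 in CAF-like and -0.062 to 2.41 in endothelial-like cells. The interaction ran from -0.80 to 0.84 for Bst2, -1.23 to 3.20 for Cd274, -0.50 to 0.28 for Ifi27 and -2.36 to 3.91 for Isg15. Of all 560 log2 differences recomputed, 475 kept direction and side of the threshold.

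No paired analysis was possible because the late libraries carry no replicate number in their labels. With library structure as a block instead, 0 of 9 columnar-like members passed, and 64 of 13513 genes did. In columnar-like cells a left-out late library left 1 late sample, which was assumed to vary like the early ones. Depth limits the smallest sums: with 12 to 15 endothelial-like cells, 1 count is several CPM.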

Other observations

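Trim30a, an interferon-induced gene of the type I-like list, differed between libraries in another way than the members. In columnar-like cells it was at 5.48 and 822 CPM in the day 1 libraries, 3.92 at day 3, 236 at day 6 and 852 in the normal stroma, so both single-index libraries were low and all 3 dual-index libraries were high. The sources used here do not say which mouse strain, C57BL/6J or mixed with 129, gave each library, so index structure and any strain difference cannot be told apart, and the cause was not tested.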
